A study of Mus musculus with 8 samples.

Results

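The genes examined here are those of sterol and fatty acid synthesis, together with the regulators that set their transcription. They were chosen by name from the gene column of the array annotation. The list held 32 names for 31 genes, because Sc4mol is an older name of Msmo1. All 31 genes were on the array, on 44 of its 39429 probes, and all 31 passed the filter on dim probes, out of 16151 genes tested. Each of the 31 was well above background on all 8 arrays.

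The cells were C10, a derivative of the established mouse pre-B line HAFTL in which C/EBPα, a myeloid transcription factor, can be activated and drives a switch to macrophage-like cells. There were 4 groups with 2 arrays each: C10 cells with an shRNA against Tet2 after 24 h of induction, the same line before induction (0 h), C10 cells with a control shRNA after 24 h, and the control line at 0 h. All cells grew with 10% FBS and 1 µg/ml puromycin, and the induced cells also received 100 nM estradiol and the cytokines IL-3 and M-CSF at 10 ng/ml apiece. The serum, a source of cholesterol, was part of every group's medium. Estradiol, IL-3 and M-CSF were in both 24 h groups and in neither 0 h group, so their own effects and that of C/EBPα cannot be told apart. The series design calls the 2 arrays of a group technical duplicates, so every p-value reflects how duplicate arrays vary and leaves out variation between cultures.

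Mammalian cells build cholesterol from acetyl-CoA through mevalonate, farnesyl diphosphate, squalene and lanosterol, and build fatty acids from the same acetyl-CoA through malonyl-CoA. The SREBP transcription factors, made from Srebf1 and Srebf2, switch on both routes when sterols in the endoplasmic reticulum run low. The escort protein SCAP carries the SREBP precursors to the Golgi for cleavage, and the INSIG proteins hold the complex back when sterols are plentiful. In macrophages, SREBP activity and the sterol-activated receptor LXR are known to set the lipid make-up of the cell.

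Levels are given as relative intensity, the background-subtracted signal of a probe as a multiple of the 75th percentile of its array, and differences on the log2 scale with the standard error of the fit. A gene is said to have risen, fallen or differed where limma's p, adjusted by the Benjamini-Hochberg method over the 16151 genes, was under 0.05. A change of at least 2-fold is named as a second, stricter rule. In bulk RNA, fewer cells that express a gene and less RNA per cell cannot be told apart.

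Tet2, which encodes an enzyme that oxidises methylated cytosine, had no lower transcript level that passed the test in the line labelled Tet2 knockdown. Its relative intensity was 0.952 and 1.04 at 24 h and 0.350 and 0.406 at 0 h in the line labelled knockdown, and 0.980 and 1.00 at 24 h and 0.425 and 0.389 at 0 h in the control line. The log2 difference between the lines was 0.01 ± 0.10 at 24 h (adjusted p = 0.982) and -0.11 ± 0.10 at 0 h (adjusted p = 0.533), and the 95% interval at 0 h ran from -0.36 to 0.14. The labels did not give the part of the transcript targeted by the shRNA. Duplicates correlated across genes with r from 0.992 to 0.994. The 10 pre-B markers summed to 401 and 420 at 24 h and 516 and 591 at 0 h in the line labelled knockdown, and to 289 and 315 at 24 h and 542 and 583 at 0 h in the control line. The 10 macrophage markers summed to between 1086 and 1256 on the 24 h arrays and between 15.4 and 17.2 on the 0 h arrays, and no marker of either list was below background on all arrays. The 4 adipocyte and hepatocyte markers summed to 0.953 and 1.03 at 24 h and 0.026 and 0.125 at 0 h in the line labelled knockdown, and to 0.307 and 0.340 at 24 h and 0.0296 and 0.0297 at 0 h in the control line. Nearly all of that was Adipoq at 24 h, and 2 of the 4 were below background on all arrays. These lists moved with induction, and their part in the induction changes below was not tested.

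Promoter windows of 300 bases, 250 before and 50 after a transcript start, were taken from RefSeq (GRCm38.p6) for 25 of the 31 genes. Fdps, Fdft1, Sqle, Scd1, Scd2 and Stard4 had no entry. The pentamer CCAAT, the letters of the NF-Y box, was found on either strand in a window of 21 of the 25 genes (84.0%), against 41.1% of the 27025 genes with a window (11096 genes). The sterol regulatory element TCACNCCAC was found in 1 of the 25, Hmgcs1 (4.0%, against 1.44% of all genes), and the E-box CACGTG in 6 (24.0%, against 8.09%). The sterol element was searched in that form only, so a site with other letters was not counted. The LXR element, a direct repeat, was searched in its consensus form and found in none, against 0.015% of all genes. Dhcr7, Insig2 and Pmvk, among others, have several windows and were counted where any of them held the letters. These matches describe the letters in the windows only. The 5 windows of genes that differed between the lines at 0 h and in their induction, and that hold CCAAT, are shown first, with that of Hmgcs1 for its sterol element. Each runs 5′ to 3′ on the gene's strand, and capitals mark CCAAT, its reverse complement, or the sterol element.
Idi1 (chr13:8885356-8885655, plus strand): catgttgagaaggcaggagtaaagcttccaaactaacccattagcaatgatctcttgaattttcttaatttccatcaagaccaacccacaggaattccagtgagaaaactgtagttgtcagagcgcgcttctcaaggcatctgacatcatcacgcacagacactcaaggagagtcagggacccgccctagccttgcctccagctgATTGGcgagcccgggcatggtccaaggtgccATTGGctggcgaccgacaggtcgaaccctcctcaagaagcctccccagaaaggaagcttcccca
Lss (chr10:76531355-76531654, plus strand): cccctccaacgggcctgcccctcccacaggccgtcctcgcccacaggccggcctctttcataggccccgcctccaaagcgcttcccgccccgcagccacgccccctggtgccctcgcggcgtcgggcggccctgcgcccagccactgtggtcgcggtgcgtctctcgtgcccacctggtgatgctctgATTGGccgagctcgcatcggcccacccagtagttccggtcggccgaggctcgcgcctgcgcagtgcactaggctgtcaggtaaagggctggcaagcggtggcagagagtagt
Cyp51 (chr5:4104648-4104947, minus strand): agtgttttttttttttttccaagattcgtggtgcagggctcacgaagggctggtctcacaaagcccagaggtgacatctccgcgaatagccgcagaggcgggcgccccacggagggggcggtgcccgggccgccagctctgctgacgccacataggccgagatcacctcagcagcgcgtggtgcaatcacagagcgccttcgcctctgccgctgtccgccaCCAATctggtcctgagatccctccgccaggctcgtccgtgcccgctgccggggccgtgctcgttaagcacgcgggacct
Sc5d (chr9:42264251-42264550, minus strand): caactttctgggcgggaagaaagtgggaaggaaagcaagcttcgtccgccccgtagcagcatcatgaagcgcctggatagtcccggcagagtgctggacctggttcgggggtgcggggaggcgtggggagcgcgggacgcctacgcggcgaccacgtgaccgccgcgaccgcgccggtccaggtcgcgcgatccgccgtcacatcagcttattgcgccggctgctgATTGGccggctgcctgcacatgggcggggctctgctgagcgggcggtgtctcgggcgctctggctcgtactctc
Fasn (chr11:120824498-120824797, minus strand): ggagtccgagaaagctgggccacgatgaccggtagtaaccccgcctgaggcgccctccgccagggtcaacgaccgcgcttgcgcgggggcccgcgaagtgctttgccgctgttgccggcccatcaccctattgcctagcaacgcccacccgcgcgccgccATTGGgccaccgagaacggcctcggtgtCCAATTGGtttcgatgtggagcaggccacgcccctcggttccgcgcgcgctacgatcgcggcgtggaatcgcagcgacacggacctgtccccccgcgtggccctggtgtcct
Hmgcs1 (chr13:119690101-119690400, plus strand): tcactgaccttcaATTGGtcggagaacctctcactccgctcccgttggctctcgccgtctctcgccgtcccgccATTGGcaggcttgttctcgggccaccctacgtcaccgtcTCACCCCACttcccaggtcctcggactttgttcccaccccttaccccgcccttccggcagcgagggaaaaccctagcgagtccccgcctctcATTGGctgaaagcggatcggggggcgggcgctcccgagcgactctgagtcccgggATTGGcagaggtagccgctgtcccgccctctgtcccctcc
Counted from the transcript start, the CCAAT match lay at position -29 in Cyp51, -24 in Sc5d and -62 in Lss, and Idi1 held matches at -45 and -14. In Fasn 2 of the 3 matches overlap on opposite strands, and in Hmgcs1 the sterol element lay at -137. Elovl6 and Scap, which also differed in their induction, had no CCAAT in their windows.

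The first question was what 24 h of induction did to the route in each line. In the line labelled knockdown 17 of the 31 genes rose (54.8%, against 36.2% of all genes tested), 8 fell (25.8%, against 32% of all genes) and 6 did not pass, so that 25 were called where 68.2% of all genes were. In the control line 22 rose (71.0%, against 30.7% of all genes), 3 fell (9.68%, against 31.1%) and 6 did not pass, against 61.9% of all genes called. The median log2 change was 0.35 in the line labelled knockdown and 0.46 in the control line, beside medians over all genes of 0.14 and 0.00 for the same lines. Most changes were small: 3 genes reached 2-fold in the line labelled knockdown, against 32.2% of all genes, and 1 did in the control line, against 27.3%. The 2 inductions are separate arrays and share no control, and 16 genes rose in both lines and 3 fell in both (Acaca, Dhcr7 and Scap). No gene was called in opposite directions. The shares of all genes that rose in both lines, fell in both or went opposite ways were not counted. These joint counts therefore have no background to be set against. When arrays were scaled to their median, the median over all genes moved to -0.11 in both lines. The split of calls became 3 higher and 6 lower in the line labelled knockdown, and 6 higher and 2 lower in the control line. Over all genes, 20.4% were then higher and 32.0% lower in the line labelled knockdown, and 19.6% higher and 25.7% lower in the control line.

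**Figure D1:**
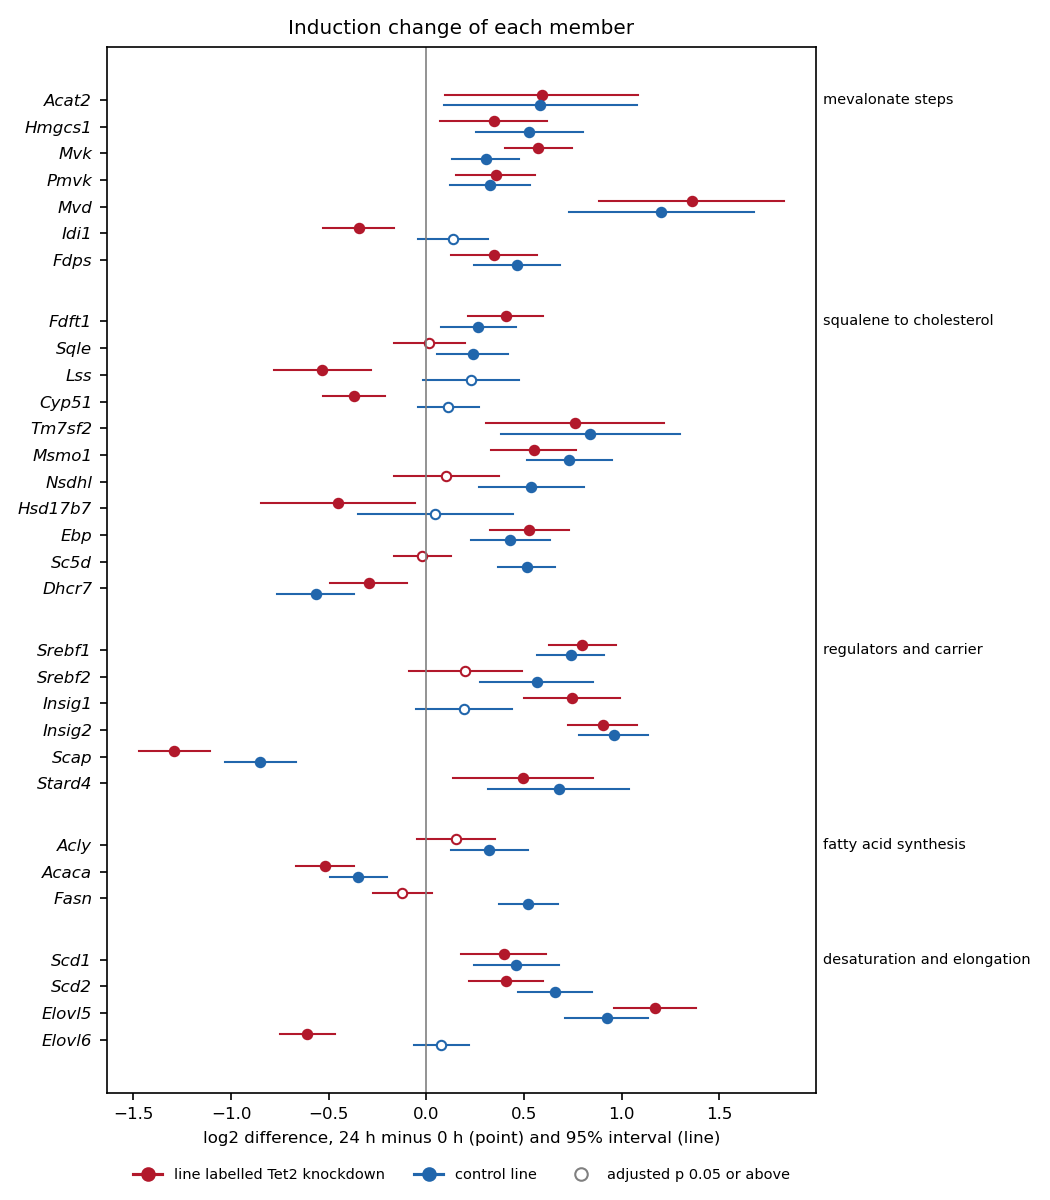
Log2 change at 24 h over 0 h for all 31 genes, grouped by role, with 95% intervals as lines. The line labelled Tet2 knockdown (red) is drawn above the control line (blue), and open points did not pass the test. Mvd lies farthest to the right and Scap farthest to the left in both lines, with Elovl5 and Insig2 next to Mvd, while Idi1, Lss, Cyp51 and Elovl6 lie below 0 in the line labelled knockdown and above 0 in the control line.

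Among the 7 genes of the mevalonate steps, 6 rose in both lines. Mvd, the decarboxylase that makes isopentenyl diphosphate, changed most. It is reported by the 60-base probe below, which mm9 places at chr8:124957750-124957809 on the minus strand. The probes of the 3 genes that reached 2-fold are shown because each value rests on 1 such sequence.
Mvd: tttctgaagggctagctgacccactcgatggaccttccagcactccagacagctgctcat
Elovl5: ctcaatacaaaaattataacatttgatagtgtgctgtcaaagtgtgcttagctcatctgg
Scap: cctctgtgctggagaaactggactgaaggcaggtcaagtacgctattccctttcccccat
The Elovl5 probe lies at chr9:77832205-77832264 and the Scap probe at chr9:110287280-110287339, both on the plus strand of mm9, and the files name the gene but not the exon.

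Mvd had a relative intensity of 4.34 and 3.40 at 24 h and 1.62 and 1.39 at 0 h in the line labelled knockdown. The control line had 3.38 and 2.74 at 24 h and 1.48 and 1.18 at 0 h. Both 24 h arrays lay above both 0 h arrays in each line. With 2 arrays per group such gaps are common. Over all genes, the times did not overlap for 83.8% in the line labelled knockdown and 78.6% in the control line. The lines did not overlap for 57.1% of all genes at 0 h and 59.7% at 24 h. Mvd was 2.56-fold higher at 24 h in the line labelled knockdown (log2 change 1.36 ± 0.19, adjusted p = 0.00131) and 2.30-fold higher in the control line (1.20 ± 0.19, adjusted p = 0.00241). The replicate 1 array was the brighter one in all 4 groups, and the replicate number marks the slide.

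The other mevalonate genes that rose moved by 0.30 to 0.59 on the log2 scale. Mvk, which phosphorylates mevalonate, rose by 0.57 ± 0.07 in the line labelled knockdown and by 0.30 ± 0.07 in the control line. Pmvk, the next kinase, rose by 0.35 ± 0.08 and 0.33 ± 0.08 in the same lines. Fdps, which makes farnesyl diphosphate, rose by 0.35 ± 0.09 in the line labelled knockdown and 0.46 ± 0.09 in the control line. Hmgcs1, which makes HMG-CoA, rose by 0.34 ± 0.11 (adjusted p = 0.0342) and 0.53 ± 0.11 (adjusted p = 0.00761) in the same order. Acat2, which joins acetyl-CoA units, had the widest error, with 0.59 ± 0.20 (adjusted p = 0.0405) in the line labelled knockdown and 0.58 ± 0.20 (adjusted p = 0.0465) in the control line.

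Idi1, the isomerase that makes dimethylallyl diphosphate, did not follow them. Its relative intensity was 6.12 and 6.52 at 24 h and 8.07 and 8.004 at 0 h in the line labelled knockdown. In the control line it was 5.49 and 5.56 at 24 h and 5.29 and 4.79 at 0 h. The 0 h arrays of the line labelled knockdown were the highest of the 8 and the control arrays at 0 h the lowest, with no overlap between any pair of groups. At 24 h Idi1 was at 78.6% of its 0 h level in the line labelled knockdown (log2 change -0.35 ± 0.07, adjusted p = 0.00681), and in the control line the change of 0.13 ± 0.07 did not pass (adjusted p = 0.162).

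Among the 11 genes from squalene to cholesterol, the line labelled knockdown had 4 that rose and 4 that fell, and the control line had 7 that rose and 1 that fell. Ebp, a sterol isomerase, rose by 0.53 ± 0.08 in the line labelled knockdown and 0.43 ± 0.08 in the control line. Msmo1, which starts removal of a methyl group from the ring, rose by 0.55 ± 0.09 and 0.73 ± 0.09. Tm7sf2, a sterol reductase, rose by 0.76 ± 0.18 in the line labelled knockdown and 0.84 ± 0.18 in the control line. Fdft1, the squalene synthase, rose by 0.41 ± 0.08 in the line labelled knockdown and 0.27 ± 0.08 in the control line.

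Dhcr7, the reductase of the last step, fell in both lines, to 81.5% of its 0 h level in the line labelled knockdown (log2 change -0.30 ± 0.08, adjusted p = 0.0186) and to 67.5% in the control line (-0.57 ± 0.08, adjusted p = 0.00147). Lss closes the sterol ring and Cyp51 removes a methyl group from lanosterol, and both fell under the knockdown label alone by the test. Lss was at 69.1% of its 0 h level in the line labelled knockdown (log2 change -0.53 ± 0.10, adjusted p = 0.00441) and at 117% in the control line (0.23 ± 0.10, adjusted p = 0.0962, or 0.0146 with the slide as a block). Cyp51 was at 77.3% in the line labelled knockdown (log2 change -0.37 ± 0.06, adjusted p = 0.00305) and at 108% in the control line (0.11 ± 0.06, adjusted p = 0.18).

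Hsd17b7, a ketoreductase of the same demethylation, was at 73.1% in the line labelled knockdown (log2 change -0.45 ± 0.16, adjusted p = 0.0465) and at 103% in the control line (0.05 ± 0.16, adjusted p = 0.83). Its other probe gave -0.86 ± 0.08 in the line labelled knockdown and -0.13 ± 0.08 in the control line. Sqle, Sc5d and Nsdhl had 0.02 ± 0.07, -0.02 ± 0.06 and 0.10 ± 0.11 in the line labelled knockdown, where none passed. In the control line they rose by 0.24 ± 0.07, 0.51 ± 0.06 and 0.54 ± 0.11. Sqle, the squalene epoxidase, and Nsdhl, a sterol dehydrogenase, did not differ between the inductions by the test of that difference (adjusted p = 0.201 and 0.112), while Sc5d, a sterol desaturase, did.

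Of the regulators, Srebf1, Insig2 and the sterol carrier gene Stard4 rose in both lines and Scap fell in both. Scap had a relative intensity of 9.66 and 9.48 at 24 h and 23.4 and 23.4 at 0 h in the line labelled knockdown. The control line had 11.5 and 10.2 at 24 h and 19.5 and 19.5 at 0 h. The highest and the lowest of the 8 arrays were both from the line labelled knockdown, and no pair of groups overlapped. Scap was at 40.9% of its 0 h level in the line labelled knockdown (log2 change -1.29 ± 0.07, adjusted p = 3.0e-05) and at 55.5% in the control line (-0.85 ± 0.07, adjusted p = 0.000182). It was the only one of the 31 genes to fall at least 2-fold, in the line labelled knockdown.

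Insig2 had 2.69 and 2.55 at 24 h and 1.39 and 1.42 at 0 h in the line labelled knockdown, and 3.19 and 2.93 at 24 h and 1.61 and 1.53 at 0 h in the control line. It was 1.87-fold higher at 24 h in the line labelled knockdown (log2 change 0.90 ± 0.07, adjusted p = 0.000113) and 1.94-fold higher in the control line (0.96 ± 0.07, adjusted p = 0.000103). All 4 of its 24 h arrays lay above all 4 of its 0 h arrays.

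Srebf1 had 0.778 and 0.732 at 24 h and 0.446 and 0.423 at 0 h in the line labelled knockdown, and 0.736 and 0.688 at 24 h and 0.433 and 0.420 at 0 h in the control line. The lines overlapped at each time and the times did not overlap in either line. The rise was 0.80 ± 0.07 in the line labelled knockdown and 0.74 ± 0.07 in the control line (adjusted p = 0.000164 and 0.00026).

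Insig1, itself a known SREBP target, had 0.985 and 0.940 at 24 h and 0.617 and 0.534 at 0 h in the line labelled knockdown. The control line had 0.772 and 0.746 at 24 h and 0.705 and 0.627 at 0 h. The 24 h arrays of the line labelled knockdown stood above the other 6. For the line labelled knockdown that is a 1.68-fold rise (0.74 ± 0.10, adjusted p = 0.00103), and the control value of 0.19 ± 0.10 did not pass (adjusted p = 0.146, or 0.0413 with the slide as a block). The difference between these changes, 0.55 ± 0.14, had an adjusted p of 0.0513, or 0.0165 with the slide as a block.

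Srebf2 had 1.13 and 1.17 at 24 h and 1.06 and 0.955 at 0 h in the line labelled knockdown, and 1.28 and 1.54 at 24 h and 1.01 and 0.902 at 0 h in the control line. On this probe the line labelled knockdown had a change of 0.20 ± 0.12 (adjusted p = 0.178) and the control line one of 0.56 ± 0.12 (adjusted p = 0.0072). Its other, dimmer probe had 0.337 and 0.337 at 24 h and 0.176 and 0.132 at 0 h in the line labelled knockdown, and 0.341 and 0.422 at 24 h and 0.150 and 0.146 at 0 h in the control line. On the dimmer probe Srebf2 rose at least 2-fold in both lines, by 1.14 ± 0.16 on the log2 scale in the line labelled knockdown (adjusted p = 0.00142 over all probes tested) and by 1.36 ± 0.16 in the control line (adjusted p = 0.000748). The probes thus differ in the size of the change in both lines and in the call in the line labelled knockdown. The brighter probe lies at chr15:82034765-82034824 and the dimmer one at chr15:82030068-82030127, both on the plus strand of mm9.
Srebf2 brighter probe: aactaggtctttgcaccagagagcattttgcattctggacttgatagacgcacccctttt
Srebf2 dimmer probe: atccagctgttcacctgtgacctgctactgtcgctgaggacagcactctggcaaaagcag
Stard4 rose by 0.49 ± 0.14 in the line labelled knockdown and 0.68 ± 0.14 in the control line, while its other probe gave -0.07 ± 0.08 and 0.22 ± 0.08 and was called in neither.

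**Figure D2:**
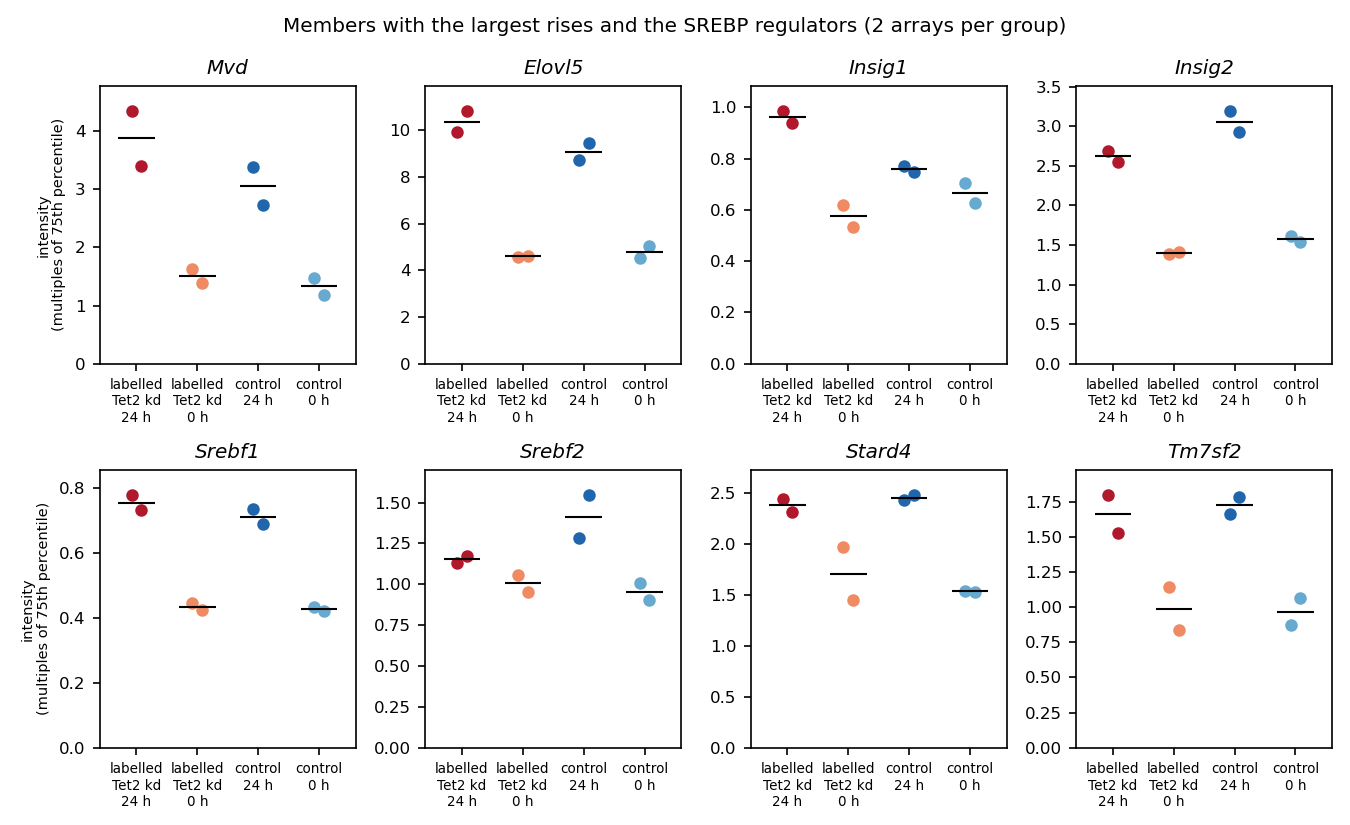
Relative intensity (multiples of the array's 75th percentile) on every array for the genes with the largest rises and for the regulators, with 2 arrays per group as points and the group mean as a bar. In Mvd, Elovl5, Insig2 and Srebf1 the 24 h groups stand above the 0 h groups in both lines, while in Insig1 the 24 h arrays of the line labelled knockdown stand above the other 6.

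The fatty acid genes did not move as 1 group. Acaca, the carboxylase that makes malonyl-CoA, fell in both lines, to 69.8% of its 0 h level in the line labelled knockdown (-0.52 ± 0.06) and to 78.6% in the control line (-0.35 ± 0.06). All 4 of its probes fell in both lines. Fasn, the synthase that builds palmitate, had a relative intensity of 1.07 and 0.998 at 24 h and 1.12 and 1.13 at 0 h in the line labelled knockdown. In the control line it had 0.981 and 0.960 at 24 h and 0.686 and 0.667 at 0 h, the lowest of the 8 arrays. Its change was -0.12 ± 0.06 in the line labelled knockdown, which did not pass (adjusted p = 0.119), and in the control line Fasn rose 1.44-fold (0.52 ± 0.06, adjusted p = 0.000644).

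Acly, which makes acetyl-CoA from citrate, had 0.15 ± 0.08 in the line labelled knockdown and rose by 0.32 ± 0.08 in the control line, and its other probe was called in neither line (0.08 ± 0.07 in the line labelled knockdown and -0.04 ± 0.07 in the control line). Of the desaturases and elongases, Scd1, Scd2 and Elovl5 rose in both lines. The desaturase genes Scd1 and Scd2 rose by 0.40 ± 0.09 and 0.41 ± 0.08 in the line labelled knockdown and by 0.46 ± 0.09 and 0.66 ± 0.08 in the control line.

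Elovl5, which lengthens polyunsaturated fatty acids, had a relative intensity of 9.92 and 10.8 at 24 h and 4.58 and 4.63 at 0 h in the line labelled knockdown. Control arrays had 8.73 and 9.44 at 24 h and 4.55 and 5.05 at 0 h. All 4 of its 24 h arrays lay above all 4 of its 0 h arrays. It was 2.25-fold higher at 24 h in the line labelled knockdown (log2 change 1.17 ± 0.08, adjusted p = 8.1e-05) and 1.90-fold higher in the control line (0.92 ± 0.08, adjusted p = 0.000246).

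Elovl6, which lengthens palmitate, went the other way in the line labelled knockdown. On its probe the arrays read 2.77 and 2.77 at 24 h and 4.11 and 4.34 at 0 h in that line. Control arrays had 3.18 and 3.09 at 24 h and 2.97 and 2.98 at 0 h. The 0 h arrays of the line labelled knockdown were the highest of the 8 and its 24 h arrays the lowest. Elovl6 was at 65.6% of its 0 h level in the line labelled knockdown (log2 change -0.61 ± 0.06, adjusted p = 0.000225) and at 105% in the control line (0.07 ± 0.06, adjusted p = 0.304).

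With each array left out in turn, 17 of the 25 calls in the line labelled knockdown and 18 of the 25 in the control line held in all 8 refits. In the line labelled knockdown, Acat2 and Hmgcs1 lost the call in 7 refits, Hsd17b7 in 5, Dhcr7, Pmvk and Stard4 in 2, and Fdps and Tm7sf2 in 1, without its 24 h replicate 1. In the control line, Acat2 lost it in 6 refits, Sqle in 5, Fdft1 in 3, Acly and Pmvk in 2, Mvk in 1 (without control 24 h replicate 1) and Tm7sf2 in 1 (without control 0 h replicate 1).

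With normexp and quantile normalization, and likewise in the deposited value table, Acat2, Dhcr7, Fdps, Hmgcs1, Hsd17b7 and Scd2 lost the call in the line labelled knockdown, and Acat2, Acly, Pmvk and Sqle lost it in the control line. Across those 2 settings and quantile scaling, 13 of the 17 higher and 6 of the 8 lower calls were kept in the line labelled knockdown, and 18 of the 22 higher and all 3 lower calls in the control line.

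The second question was whether the lines differed before induction. At 0 h 8 of the 31 genes were higher in the line labelled knockdown than in the control line (25.8%, against 5.91% of all genes tested), none was lower (against 7.56% of all genes), and 13.5% of all genes differed. None of the 8 reached 2-fold, against 1.72% of all genes. The median log2 difference was 0.17 for the 31 genes and 0.00 for all genes, and 25 of the 31 values lay above 0. The 8 genes were 5 of the 11 from squalene to cholesterol (Lss, Cyp51, Msmo1, Nsdhl and Sc5d), Idi1 of the mevalonate steps, Fasn and Elovl6. No regulator passed, and Scap came nearest with 0.26 ± 0.07 (adjusted p = 0.0696, or 0.0445 with the slide as a block).

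Fasn differed most, with 166% of the control level (0.73 ± 0.06, adjusted p = 0.00317), followed by Idi1 with 160% (0.67 ± 0.07, adjusted p = 0.00585). Cyp51 had 143% (0.52 ± 0.06, adjusted p = 0.00854), Elovl6 142% (0.51 ± 0.06, adjusted p = 0.00671) and Sc5d 140% (0.49 ± 0.06, adjusted p = 0.00816). Lss had 144% of control with a wider error (0.52 ± 0.10, adjusted p = 0.0281). Nsdhl had 140% (0.48 ± 0.11, adjusted p = 0.0426) and Msmo1 136% (0.45 ± 0.09, adjusted p = 0.0299), and both lost the call with normexp and quantile normalization and in the deposited value table. The other Nsdhl probe gave 0.19 ± 0.15 and was not called.

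Hsd17b7 did not pass on its brighter probe (0.47 ± 0.16, adjusted p = 0.117, or 0.0106 with the slide as a block), and its other probe was called higher (0.45 ± 0.08). Acat2 had 0.52 ± 0.20 (adjusted p = 0.144). The calls of Fasn, Idi1, Sc5d and Elovl6 held whichever array was left out. Cyp51 lost its call without either control 0 h array, Lss and Nsdhl in 6 of 8 refits and Msmo1 in 7, and the count of 8 was then 4 to 7. It was 4 without control 0 h replicate 2, and 5 without control 0 h replicate 1, either control 24 h array or either 0 h array of the line labelled knockdown. The share of all genes called at 0 h also fell in each of these refits. The pre-B markers summed to 516 and 591 in the line labelled knockdown and 542 and 583 in the control line at 0 h. The macrophage markers summed to 15.4 and 17.2 against 17.0 and 17.0. Most of the macrophage sum was Ctsd, with 9.74 and 11.1 against 10.5 and 10.9. Of the 10 macrophage markers, 2 were lower in the line labelled knockdown, 1 of them at least 2-fold, and none was higher. Of the 10 pre-B markers, 1 was higher and none was lower. Over all genes, 5.91% were higher and 7.56% lower.

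At 24 h 2 of the 31 genes were higher in the line labelled knockdown (6.45%, against 7.39% of all genes tested) and none was lower (against 6.45% of all genes), with 13.8% of all genes called. None reached 2-fold, against 2.04% of all genes. The median difference was 0.04 for the 31 genes and 0.04 for all genes. Mvk had 134% of the control level (0.43 ± 0.07, adjusted p = 0.0177) and Dhcr7 130% (0.38 ± 0.08, adjusted p = 0.0344). Dhcr7 lost its call in all 8 refits with 1 array left out, and Mvk without any one of the 4 arrays at 24 h. With normexp and quantile normalization the split was 2 higher (Mvk and Insig1) and 1 lower (Scd2). With the slide as a block 8 of the 31 passed, 5 higher and 3 lower, where 26.3% of all genes passed. The additions were Fdft1 (adjusted p = 0.0306), Insig1 (0.0229) and Mvd (0.0172), which were higher, and Insig2 (0.0486), Lss (0.0357) and Scd2 (0.0191), which were lower.

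Of the 8 genes higher at 0 h, Fasn had 106% of control at 24 h (0.09 ± 0.06, adjusted p = 0.377) and Idi1 114% (0.19 ± 0.07, adjusted p = 0.139). Cyp51 had 102% (0.04 ± 0.06, adjusted p = 0.763), Sc5d 96.8% (-0.05 ± 0.06, adjusted p = 0.644) and Nsdhl 103% (0.05 ± 0.11, adjusted p = 0.821). Elovl6 had 88.4% (-0.18 ± 0.06, adjusted p = 0.0974), Lss 84.7% (-0.24 ± 0.10, adjusted p = 0.171) and Msmo1 120% (0.27 ± 0.09, adjusted p = 0.104). A p that misses the threshold does not show equal levels, and the 95% interval at 24 h ran from -0.06 to 0.24 for Fasn and from -0.12 to 0.20 for Cyp51.

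**Figure D3:**
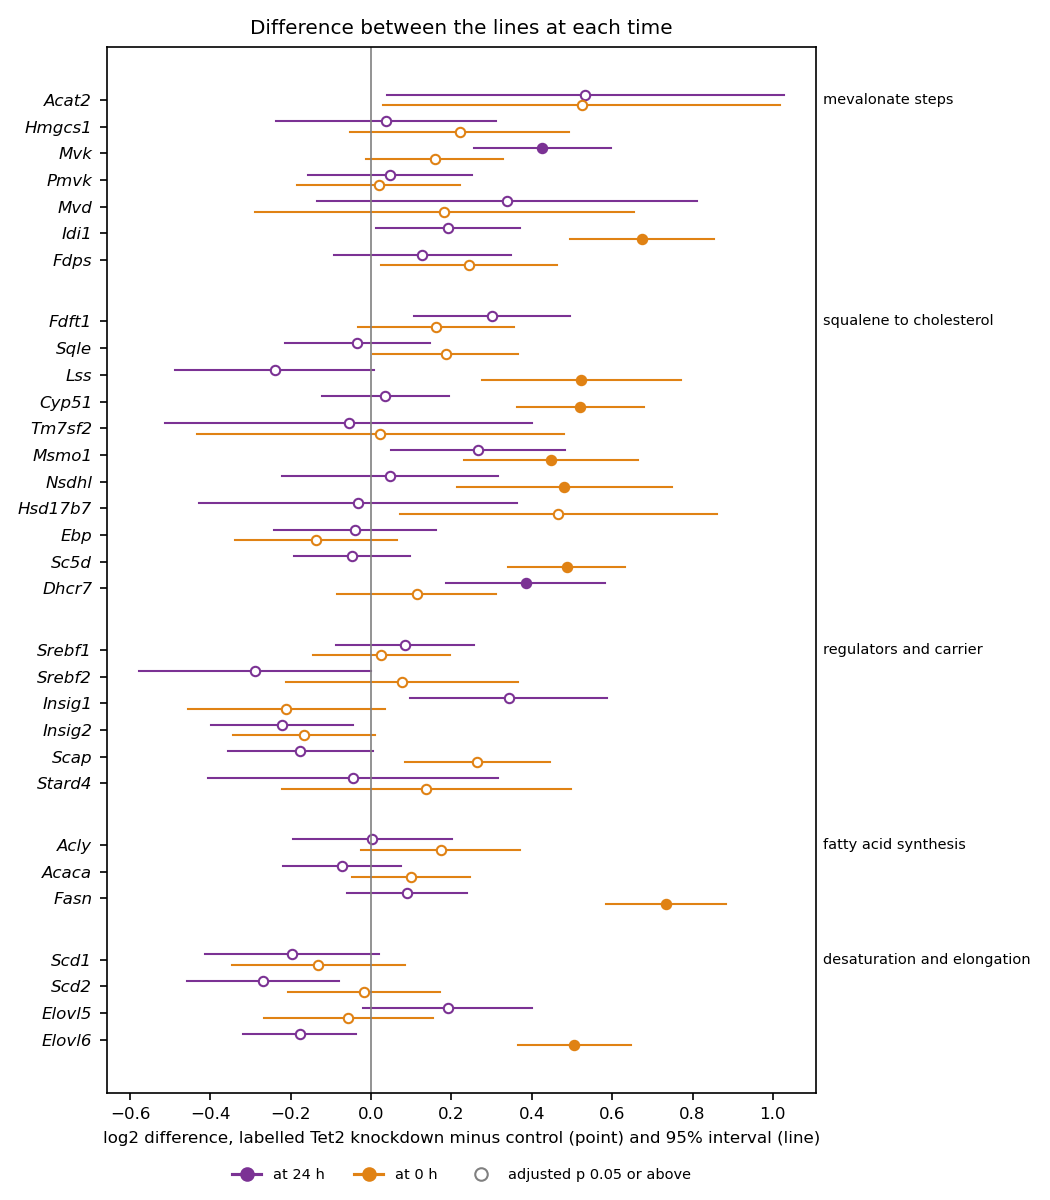
Log2 difference between the line labelled Tet2 knockdown and the control line for all 31 genes, at 24 h (purple, above) and at 0 h (orange), with 95% intervals as lines and open points for adjusted p of 0.05 or above. At 0 h 8 genes lie to the right of 0 and pass, and at 24 h Mvk and Dhcr7 do.

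The third question was whether the inductions themselves differed. The test of that difference uses all 8 arrays, so it shares its 0 h arrays with the comparison of the lines at 0 h, and its values are given beside that comparison and not as further support. The change was lower in the line labelled knockdown for 7 of the 31 genes (22.6%, against 7.05% of all genes tested) and higher for none (against 9.21%), where 16.3% of all genes were called. None reached 2-fold, against 3.82% of all genes. The median was -0.17 for the 31 genes and 0.05 for all genes. The 7 were Lss, Elovl6, Fasn, Sc5d, Cyp51, Idi1 and Scap.

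Lss had the lowest value, -0.76 ± 0.14 (adjusted p = 0.024). Its relative intensity was 0.692 and 0.613 at 24 h and 0.996 and 0.893 at 0 h in the line labelled knockdown. Control arrays had 0.782 and 0.756 at 24 h and 0.692 and 0.622 at 0 h. The arrays of the line labelled knockdown thus stood above those of the control line at 0 h and below them at 24 h, with no overlap at either time. The difference at 24 h did not pass (adjusted p = 0.171). Over all genes, the lines did not overlap for 57.1% at 0 h and 59.7% at 24 h.

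Elovl6 followed with -0.68 ± 0.08 (adjusted p = 0.00901) and Fasn with -0.64 ± 0.08 (adjusted p = 0.0119), from the array values given above. The Fasn arrays stood higher in the line labelled knockdown than in the control line at both times, by a wide margin at 0 h. At 24 h the margin was narrow and the difference did not pass (adjusted p = 0.377). Sc5d had -0.53 ± 0.08 (adjusted p = 0.016). The arrays read 2.53 and 2.51 at 24 h and 2.63 and 2.48 at 0 h in the line labelled knockdown, and 2.59 and 2.61 at 24 h and 1.85 and 1.79 at 0 h in the control line. The control arrays at 0 h stood well below the rest. The Sc5d arrays of the lines did not overlap at 24 h either, but the margin was narrow and the difference did not pass (adjusted p = 0.644).

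Cyp51 had -0.48 ± 0.09 (adjusted p = 0.0243). The arrays read 0.670 and 0.681 at 24 h and 0.859 and 0.890 at 0 h in the line labelled knockdown, and 0.634 and 0.685 at 24 h and 0.615 and 0.604 at 0 h in the control line. The lines overlapped at 24 h and were apart at 0 h. Idi1 had -0.48 ± 0.10 (adjusted p = 0.0338) and Scap -0.44 ± 0.10 (adjusted p = 0.0423).

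Elovl6 kept this call whichever array was left out, with adjusted p between 0.027 and 0.045. Fasn lost it without either control 24 h array, Lss and Sc5d in 6 of 8 refits, and Cyp51, Idi1 and Scap in all 8, where their adjusted p lay between 0.0545 and 0.122. The count of 7 was then 1 to 4: 1 without either control 24 h array, 2 without either control 0 h array or 24 h replicate 2 of the line labelled knockdown, 3 without its 0 h or 24 h replicate 1, and 4 without its 0 h replicate 2. The share of all genes called for this difference also fell in each of these refits. With normexp and quantile normalization the split was 1 higher (Insig1) and 5 lower. With the slide as a block 12 passed, 9 lower and 3 higher, where 29.8% of all genes passed. The additions were Dhcr7 (adjusted p = 0.0462), Insig1 (0.0165) and Mvk (0.049), which were higher, and Hsd17b7 (0.0161) and Scd2 (0.0411), which were lower. With the mean of a gene's kept probes, 8 passed, all lower, with Hsd17b7 added, where 16.0% of all genes passed.

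**Figure D4:**
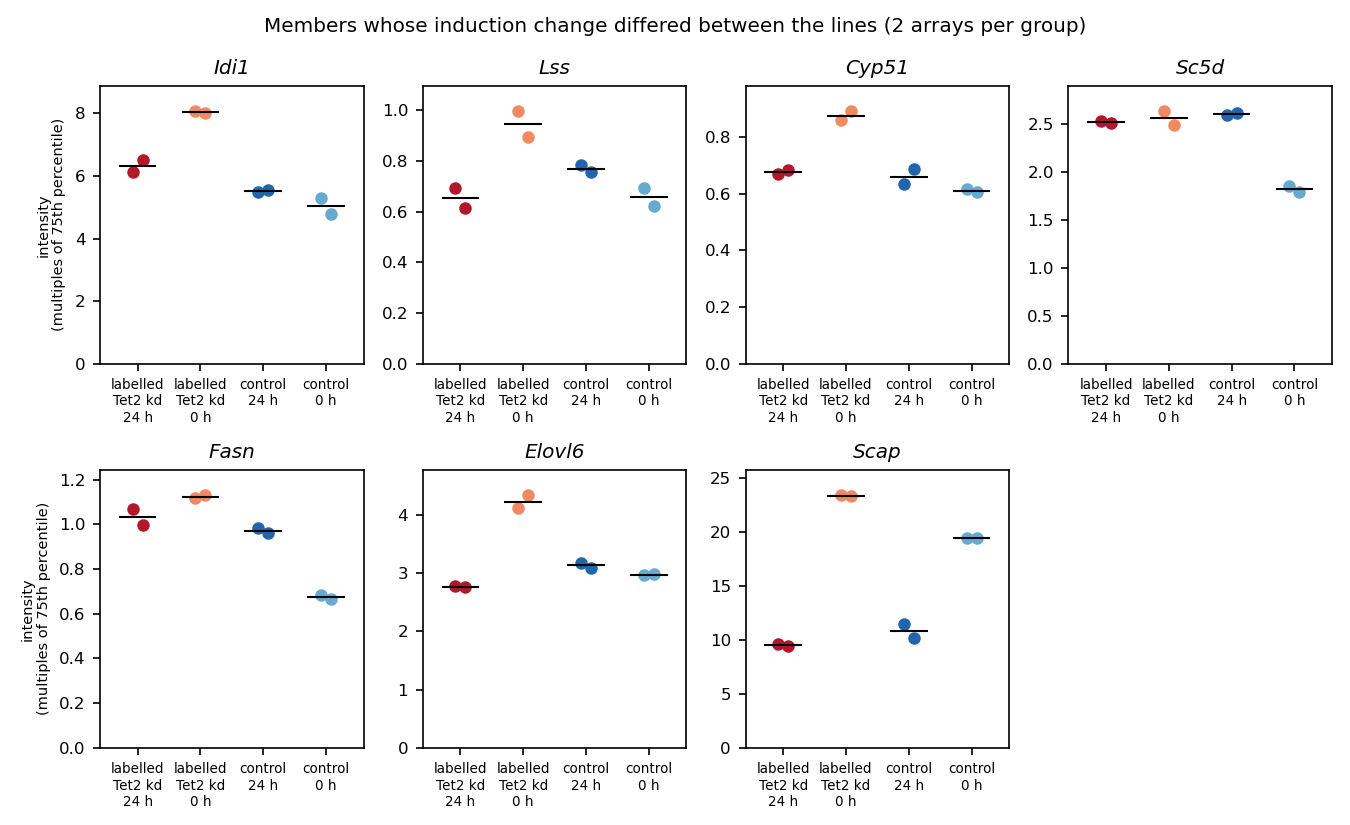
Relative intensity (multiples of the array's 75th percentile) on every array for the 7 genes whose induction differed between the lines, with 2 arrays per group as points and the group mean as a bar. In Idi1, Lss, Cyp51, Elovl6, Scap and Fasn the 0 h arrays of the line labelled Tet2 knockdown are the highest of the 8. In Idi1, Cyp51, Sc5d and Fasn the control arrays at 0 h are the lowest.

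Further genes of the pathway were counted from 2 lists. Of 20 other genes of sterol synthesis, sensing and uptake, 19 were tested. In the line labelled knockdown 10 of the 19 rose (against 36.2% of all genes tested) and 3 fell (against 32%), and in the control line 12 rose (against 30.7%) and 3 fell (against 31.1%). Soat1, which esterifies cholesterol for storage, rose most, by 2.82 in the line labelled knockdown (relative intensity 4.02 and 3.46 at 24 h, against 0.602 and 0.464 at 0 h) and by 2.41 in the control line (3.66 and 4.21, against 0.737 and 0.743). Npc2, which moves cholesterol out of lysosomes, rose by 1.72 in the line labelled knockdown and 0.94 in the control line.

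At 0 h 5 of the 19 were higher in the line labelled knockdown (against 5.91% of all genes) and 1 was lower (against 7.56%). The genes named next were chosen after their values were seen. Tmem97, a sterol-regulated membrane protein, had 0.38 (relative intensity 17.6 and 16.5 in the line labelled knockdown, against 13.0 and 13.2 in the control line), and Ube2g2, a ubiquitin-conjugating enzyme, had 0.37 (5.97 and 5.83, against 4.81 and 4.36). Npc2 was lower, with -0.43. The difference between the inductions was lower in the line labelled knockdown for 6 of the 19, among them Tmem97 (-0.54) and Ube2g2 (-0.51), and higher for Npc2 (0.78), against 7.05% of all genes lower and 9.21% higher. The 0 h arrays enter both of these comparisons. At 24 h 1 of the 19 was higher (Npc2) and 4 were lower, among them Erlin1, Erlin2 and Npc1, against 7.39% of all genes higher and 6.45% lower.

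Of 25 other genes of fatty acid synthesis, activation and elongation, 23 were tested, and 10 rose and 5 fell in each line. The shares over all genes tested were 36.2% higher and 32% lower for the line labelled knockdown, and 30.7% higher and 31.1% lower for the control line. Mlxipl, the glucose-responsive factor ChREBP, was not well above background at 0 h in either line, and was at least 2.95-fold higher at 24 h in the line labelled knockdown and at least 2.73-fold higher in the control line. Gpam, which starts triglyceride synthesis, was well above background at 24 h on a single array under the knockdown label, where the change was -2.01 ± 0.10, and on no control array, where it was at least 3.005-fold lower. Elovl7, an elongase, rose by 1.79 in the line labelled knockdown and 1.72 in the control line. At 0 h 1 of the 23 was higher (Me1, 0.52) and 2 were lower (Acss2, -0.74, and Elovl7, -0.34), at 24 h 2 were higher (Acacb, 1.03, and Mid1ip1, 0.34), and the inductions differed upward for Acacb, Acss2 and Tecr and downward for Me1. Over all genes, 5.91% were higher and 7.56% lower at 0 h, 7.39% higher and 6.45% lower at 24 h, and 9.21% higher and 7.05% lower for the difference between the inductions.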

How the data were processed

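RNA from 4 groups of C10 cells (the line labelled Tet2 knockdown and the control line, each at 24 h and at 0 h, 2 arrays per group) was amplified from 500 ng of total RNA and labelled with Cy3, per the labels' protocols. Per the file headers, the arrays were of Agilent design 026655, annotated on mm9, and extracted with Feature Extraction 10.7.3.1. The scanner output deposited for each array gives spot intensity, already background-subtracted by that software, per the file headers. The deposited value table holds log2 values, for which the submitters' processing notes name limma; a recomputation with normexp (offset 50) and quantile normalization correlated with it at 0.999999 or more on each array. No exact step of the table is given in the sources used here.

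From the processed intensity, log2 was taken relative to the 75th percentile of the probe spots on each array, outlier spots were left out (155 to 219 per array), and replicate spots were averaged. Probes entered the fit where both arrays of any group were marked well above background, and each gene was represented by its brightest such probe (20304 probes, 16151 genes). Between 47.4% and 55.6% of spots per array were well above background and none was saturated; the number of arrays limits the precision. One model with 4 group means was fitted to 8 arrays with limma 3.58.1 in R 4.3.3 (eBayes, 2-sided, Benjamini-Hochberg over all genes), giving 5 contrasts. The fit was tested on simulated data. Symbols were updated from the reference tables, by accession for 11562 genes. A fold is a lower bound where a group had no array well above background: the dim arrays were raised to the lowest value well above background on each.

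Every gene of the list is named, with each array's value for those called at 2-fold or more and for the regulators; array values of Idi1, Lss, Cyp51, Sc5d, Fasn and Elovl6 were added after their test was seen. From the further lists, the 3 genes with the largest called change are named, except for an item that is not reported here. The members and lists were chosen with earlier results of these data known. Replicate numbers mark the slide, per the file headers: replicate 1 of each group was on slide 1 and replicate 2 on slide 2. Deviations of same-numbered arrays correlated at 0.298 to 0.413 over the 6 pairs of groups, so the slide was also fitted as a block. Alternatives were normexp with quantile, median scaling, quantile scaling, the deposited table, other probe filters, the mean of a gene's probes, the slide block and each array left out. Promoters and their sequences are from RefSeq (GRCm38.p6).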

Additional observations from a re-analysis of the deposited data

Results flagged for a closer look

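The test of the difference between the inductions passed for 7 genes, each with a change over 24 h that was lower in the line labelled Tet2 knockdown than in the control line. The log2 differences were -0.76 for Lss, -0.68 for Elovl6, -0.64 for Fasn, -0.53 for Sc5d, -0.48 for Cyp51, -0.48 for Idi1 and -0.44 for Scap. For Lss, Elovl6, Fasn, Cyp51, Idi1 and Scap, the 0 h arrays of the line labelled knockdown were the highest of the 8.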

How the results depend on the processing

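None of the 67 calls among the 31 genes turned its direction under 8 other settings or with any of the 8 arrays left out. The slide block and the other probe filters left the differences of these genes unchanged, so no direction could turn there. Leaving out an array that a comparison does not use also left its differences unchanged. The deposited table nearly repeats the normexp and quantile setting. With median scaling the calls were 9 in the line labelled knockdown (3 higher), 8 in the control line (6 higher), and 0 at 0 h, at 24 h and for the difference between the inductions, while the share of all genes called at 0 h also fell, to 1.42%. With no filter on dim probes (31751 genes tested) the calls were 1 at 0 h, 0 at 24 h and 0 for the difference between the inductions, and 5 genes fell in the line labelled knockdown; 0.891% of all genes were then called at 0 h. The causes were not tested. With normexp and quantile, quantile scaling and the deposited table, 1 gene was lower at 24 h, and with normexp, the deposited table or only probes above background on all 8 arrays, 1 was higher for the difference between the inductions. Under normexp, quantile scaling and the deposited table, the calls at 0 h of Fasn, Idi1, Cyp51, Lss, Sc5d and Elovl6 held, as did the difference between the inductions for Lss, Elovl6, Fasn, Sc5d and Cyp51; Idi1 and Scap lost that call under normexp and the deposited table. With the replicate block (slide), 8 genes passed at 24 h (5 higher, 3 lower) and 12 for the difference between the inductions (3 higher); beside the calls named with it in the report, it added Hsd17b7 at 0 h (adjusted p = 0.0106) and lost none.

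With each array left out in turn, the calls ranged from 19 to 23 in the line labelled knockdown (12 to 17 higher, 6 to 8 lower, 3 at 2-fold in each) and from 19 to 25 in the control line (16 to 22 higher, 3 lower in each, 1 to 2 at 2-fold). They ranged from 4 to 7 at 0 h, 0 to 1 at 24 h and 1 to 4 for the difference between the inductions. In each of these refits the share of all genes called also fell, for every comparison. An array left alone in its group is assumed to vary as the other groups do. With technical duplicates, 4 residual degrees of freedom and a median standard error of 0.10, no culture-to-culture error is covered.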

Other observations

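LXR, a receptor that senses oxidised sterols, drives cholesterol export and also Srebf1. Of 9 genes listed for LXR and its known targets, 7 were tested, and 5 rose and 1 fell in each line. Over all genes, 36.2% rose and 32% fell in the line labelled Tet2 knockdown, and 30.7% rose and 31.1% fell in the control line. The cholesterol exporter gene Abca1 rose by 2.92 ± 0.06 in the line labelled Tet2 knockdown and by 4.05 ± 0.06 in the control line on the log2 scale. Its relative intensity was 3.54 and 3.77 at 24 h and 0.479 and 0.483 at 0 h in the line labelled knockdown, and 4.58 and 4.77 at 24 h and 0.277 and 0.289 at 0 h in the control line. The induction was thus smaller in the line labelled knockdown (-1.12, adjusted p = 0.0042). Pltp, a phospholipid transfer protein gene, was at least 4.51-fold higher at 24 h in the line labelled knockdown, where it was not well above background at 0 h, and rose by 0.54 in the control line. Mylip, a ubiquitin ligase gene, rose by 1.27 in the line labelled knockdown and 0.93 in the control line, and Apoe, an apolipoprotein gene, fell by 0.76 and by 0.71 in the same lines. These genes were chosen by the same rule as the other lists except Apoe, which was named after its value was seen.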
